A study of Mus musculus with 319 samples.

Results

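Ipo8, which encodes the nuclear import receptor importin 8, was measured by 1 probe, and its ratio to a common RNA pool split 319 mouse muscle arrays into a low, a middle and a high class. Every array of the series had a value for the probe, so the classes hold 319 of 319 arrays. The low class held 89 arrays (27.9%), the middle class 161 (50.5%) and the high class 69 (21.6%). Class limits lay at log2 ratios of -0.246 and 0.265, and arrays were selected on the measured Ipo8 ratio itself. The Ipo8 differences between classes are therefore a description of how the classes were made, and tests were run on other probes, none of which entered the rule.

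Each array compared total RNA from the muscle of 1 F2 mouse, labelled with Cy3, with a pool that holds an equal share of RNA from each animal, labelled with Cy5. The animals descend from a cross of C57BL/J6 with C3H/HeJ, both carrying the ApoE null background that raises blood lipids and leads to atherosclerosis. Males and females were fed a high-fat Western diet from week 8 to week 24. Animal number 227 stands on 2 arrays, 1 in the middle and 1 in the high class, so the labels hold 318 numbers. These arrays correlated at r = 0.54 over all tested probes, and 8 of the 317 other arrays correlated more strongly with the first of them (range -0.36 to 0.61). Both were kept as separate arrays, and the labels do not say whether they come from the same animal. The animals form 1 group with no untreated, chow-fed or ApoE-carrying control, and the labels do not say which muscle was taken. A ratio to a pool of the same tissue gives no absolute level, so the tissue label could not be checked against the levels of muscle genes. In whole muscle, fewer cells of a type and less RNA per cell cannot be told apart.

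Importin 8 belongs to the importin beta family, whose members carry proteins through the nuclear pore and release them when they bind Ran in its GTP form. Argonaute proteins, which act in microRNA silencing, and SMAD proteins, which relay TGF-beta and BMP signals, are among its known cargo, and Ipo8 is also used as a reference gene in RT-PCR. In an F2 intercross each animal receives a reshuffled mixture of both parental genomes, so that at any locus animals are homozygous for one strain, heterozygous or homozygous for the other. Genes that lie close together on a chromosome are mostly inherited together. Genotypes were not used here, and the classes are classes of RNA ratio.

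Ipo8 lies near one end of chromosome 6: in the order of the 605 other measured genes of that chromosome, 604 lie on one side of it and 1, Caprin2, on the other. The 250 bases before the annotated start are shown for Ipo8 and for 2 of its neighbours on the chromosome whose levels moved with the classes, Gpr19 upward and Stk38l downward. They are RefSeq sequences of build GRCm38.p6, written 5′ to 3′ on the gene's own strand, and capitals mark the letters GGGCGG on either strand (read as CCGCCC on the other), the core of a GC box.
Ipo8: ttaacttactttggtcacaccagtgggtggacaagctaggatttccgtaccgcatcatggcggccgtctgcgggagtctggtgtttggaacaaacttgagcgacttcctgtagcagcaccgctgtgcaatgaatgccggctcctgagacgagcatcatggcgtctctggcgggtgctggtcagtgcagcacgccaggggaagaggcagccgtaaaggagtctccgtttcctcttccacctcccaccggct
Gpr19: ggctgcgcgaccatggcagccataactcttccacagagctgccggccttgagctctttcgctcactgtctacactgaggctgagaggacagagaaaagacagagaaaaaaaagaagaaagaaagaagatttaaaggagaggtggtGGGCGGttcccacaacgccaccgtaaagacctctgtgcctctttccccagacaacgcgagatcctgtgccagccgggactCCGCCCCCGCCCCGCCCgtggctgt
Stk38l: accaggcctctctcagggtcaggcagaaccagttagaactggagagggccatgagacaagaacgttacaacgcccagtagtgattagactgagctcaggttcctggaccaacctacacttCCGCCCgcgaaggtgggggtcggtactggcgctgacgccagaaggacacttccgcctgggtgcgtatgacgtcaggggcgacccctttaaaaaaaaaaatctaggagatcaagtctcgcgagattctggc
The Ipo8 stretch covers chr6:148831468-148831717 on the minus strand, the Gpr19 stretch, before the first of 4 annotated starts, chr6:134897926-134898175 on the minus strand, and the Stk38l stretch chr6:146724680-146724929 on the plus strand. GGGCGG occurred 0 times before Ipo8, 4 times before Gpr19 (overlapping matches counted) and 1 time before Stk38l, and 32.7% of 32851 RefSeq mouse promoters of the same length hold it. All 3 stretches lacked TATAAA, which 12.4% of promoters hold, and CCAAT, which 33.8% hold. They held 15, 14 and 14 CG pairs against a median of 6, and 58.0%, 57.2% and 55.6% G and C against a median of 52.4%. The other Gpr19 starts differed: the second had 19 CG pairs and 4 matches to GGGCGG, while the third and the fourth had 3 and 2 CG pairs, 0 matches to GGGCGG and 1 to CCAAT each. These are properties of the reference sequence, and the strains' own sequences were not analysed here.

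In the low class the Ipo8 log2 ratio to the pool had a lowest value of -0.80, a median of -0.50 and a highest value of -0.28. The middle class ran from -0.24 through a median of 0.06 to 0.26. The high class ran from 0.27 through a median of 0.49 to 0.72. By the medians, a low-class animal had 0.706 times, a middle-class animal 1.04 times and a high-class animal 1.40 times the Ipo8 RNA of the pool. The class means were -0.53 ± 0.13 (SD, n = 89), 0.04 ± 0.11 (SD, n = 161) and 0.48 ± 0.10 (SD, n = 69). The gap between the classes was narrow at the upper limit: the arrays nearest to it had log2 ratios of 0.265 below and 0.269 above it, against -0.277 and -0.239 at the lower limit. Within 0.02 log10 units, 16 arrays lay near the upper limit and 6 near the lower.

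**Figure D1:**
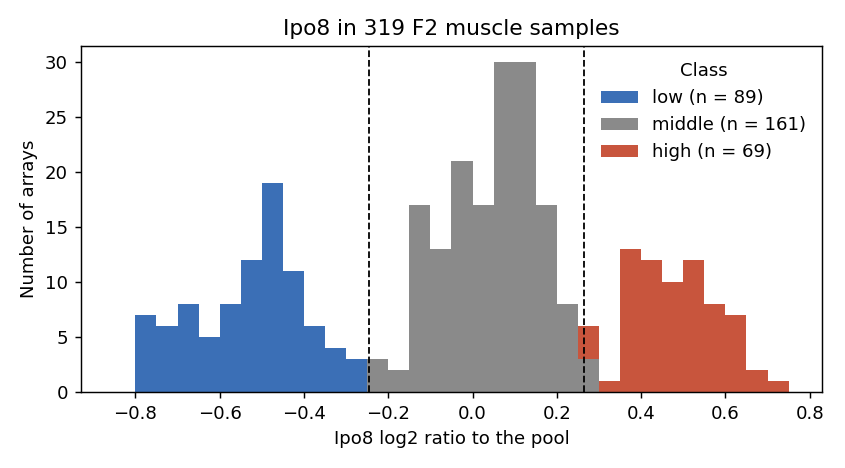
Number of arrays (vertical axis) by Ipo8 log2 ratio to the pool (horizontal axis), coloured by class, for all 319 arrays. The 89 low, 161 middle and 69 high arrays form peaks around medians of -0.50, 0.06 and 0.49, with few arrays near the class limits.

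The values were log ratios whose direction the labels do not state, and the Y-linked gene Eif2s3y was used to set it. Its log2 ratio was -3.71 or lower on 164 arrays (median -5.62) and -0.789 or higher on the other 155 (median 1.08), and a pool of 319 equal shares of which 155 carry the gene would give 1.04. A positive ratio was therefore read as a level above that of the pool. With the opposite reading, levels above and below the pool would change places. The Ipo8 ratio would turn as well, so whether a gene rises or falls with Ipo8 would stay the same. The median log2 ratio of an array was between -0.08 and 0.14. The trend with class of 4 measures of array or animal did not pass a two-sided permutation test with 100000 resamples, adjusted over the 4: array median (adjusted p = 0.596), array SD (adjusted p = 0.302), share of probes without a value (adjusted p = 0.302) and animal number (adjusted p = 0.302). A p above the threshold does not show that the classes were alike in these measures.

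Which other transcripts moved with Ipo8 class was asked by fitting each probe's log2 ratio on class, scored 0, 1 and 2, with limma. The slope is the change in log2 ratio per class step, and a probe was called at a Benjamini-Hochberg adjusted p under 0.05 over all 23189 probes tested. Of these, 49 (0.211%) were called, 30 higher (0.129%) and 19 lower (0.0819%) in the high class. Of the 24 called probes with a placed gene, 20 were among the 728 probes of chromosome 6 genes (2.75%) and 4 among the 11798 of all other chromosomes (0.0339%). The other 25 called probes, of 10663 (0.234%), had no placed gene, so most called probes could not be assigned to a chromosome. On chromosome 6, 12 probes (1.65%) were higher and 8 (1.1%) lower in the high class, and after quantile normalization 10 were higher and 11 lower. On all 49 called probes the mean of the middle class lay between those of the low and the high class. A call on a linear slope over the classes favours this order.

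The 20 called probes of chromosome 6 stood for 18 genes, 12 that rose and 6 that fell from the low to the high class. Their density was highest near Ipo8. Among the 21 measured genes at most 20 places from it, 5 were called, on 7 of 24 probes (29.2%). Between 21 and 60 places away, 5 of 40 genes were called, on 5 of 47 probes (10.6%). From 61 to 120 places the share was 2.02% of 99 probes, from 121 to 240 places 1.47% of 136, and from 241 to 360 places 2.17% of 138. Beyond 360 places, 1 of 284 probes was called (0.352%), beside 0.211% of all probes and 0.0339% of probes of genes on other chromosomes. A share that rests on 1 call is imprecise.

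**Figure D2:**
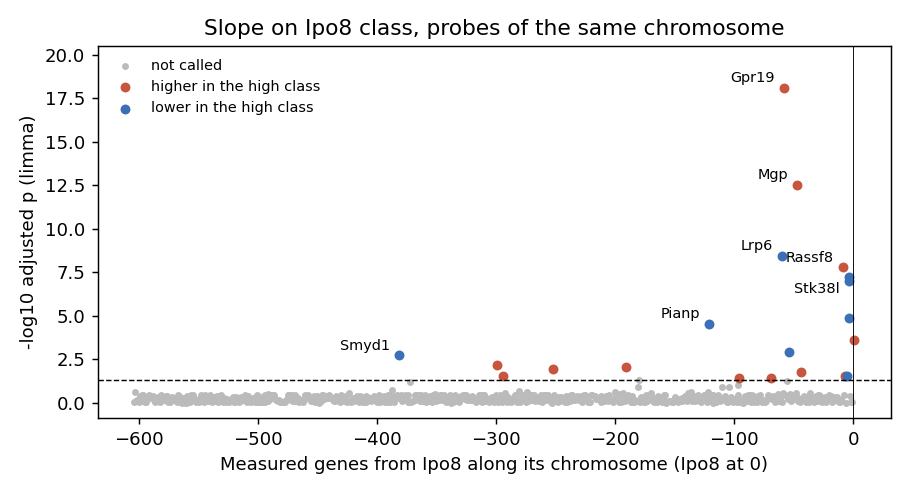
Strength of the relation to Ipo8 class, as -log10 of the adjusted p (vertical axis), for each tested probe of a chromosome 6 gene, by its distance from Ipo8 in measured genes (horizontal axis). The highest points lie within about 60 genes of Ipo8, led by Gpr19 at 58 places with an adjusted p of 7.92e-19, and only Caprin2 lies on the other side.

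Gpr19, an orphan G protein-coupled receptor 58 places from Ipo8, had the smallest p of all probes. Its log2 ratio ran from -1.33 through a median of -0.44 to 0.65 in the low class, from -0.88 through 0.06 to 0.73 in the middle class and from -0.78 through 0.44 to 0.89 in the high class. The classes overlapped, but 66 of 69 high-class arrays lay above the low-class median and 84 of 89 low-class arrays below the high-class median. The slope was 0.33 ± 0.031 (SE; limma adjusted p = 7.92e-19), and the geometric mean of the high class was 1.59 times that of the low class.

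Mgp, which encodes matrix Gla protein, an inhibitor of calcification in vessels and cartilage, lay 47 places from Ipo8 and also rose. Its log2 ratio ran from -2.97 through a median of -0.53 to 1.46 in the low class, from -1.87 through -0.02 to 1.14 in the middle class and from -0.67 through 0.47 to 1.13 in the high class. The classes overlapped, and the lowest values were farthest apart. The slope was 0.43 ± 0.0487 (SE; limma adjusted p = 3.05e-13), a 1.81-fold difference between high and low, with 66 of 69 high-class arrays above the low-class median.

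Lrp6, a co-receptor for Wnt ligands 60 places from Ipo8, moved in the opposite direction. Its log2 ratio ran from -2.38 through a median of 0.41 to 1.37 in 87 low-class arrays with a value, from -1.96 through 0.02 to 1.29 in 160 middle-class arrays and from -1.77 through -1.03 to 0.98 in 68 high-class arrays. Ratios of the high class were thus low in most but not all arrays, and the SD within a class was 0.82, 0.68 and 0.69. The slope was -0.43 ± 0.0583 (SE; limma adjusted p = 3.52e-09), and low-class animals had 1.84 times the level of high-class animals. A second Lrp6 probe gave a slope of -0.0020 with an adjusted p of 0.940, so the probes of this gene disagreed.

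Stk38l, a serine/threonine kinase of the NDR family 4 places from Ipo8, fell on each of its 3 probes. Their slopes were -0.13, -0.13 and -0.11, with limma adjusted p of 6.13e-08, 1.06e-07 and 1.34e-05. On the first probe the median log2 ratio went from 0.09 in the low class through -0.07 in the middle to -0.22 in the high class, over ranges of -0.91 to 0.49, -0.67 to 0.83 and -0.68 to 0.46. The classes overlapped widely, and 65 of 69 high-class arrays lay below the low-class median, a 1.20-fold difference between low and high.

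Rassf8, a member of the Ras association domain family 9 places from Ipo8, rose. Its median log2 ratio was -0.12 in the low class (-1.23 to 0.43), 0.05 in the middle class (-1.01 to 0.88) and 0.22 in the high class (-1.24 to 0.92). Of 68 high-class arrays with a value, 65 were above the low-class median. The slope was 0.17 ± 0.024 (SE; limma adjusted p = 1.62e-08), and high-class animals had 1.27 times the level of low-class animals.

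Caprin2, an RNA-binding protein and the only measured gene beyond Ipo8, rose as well. Its median log2 ratio was -0.06 (-1.68 to 0.39), -0.01 (-0.85 to 0.59) and 0.09 (-0.30 to 0.44) from the low to the high class. The slope was 0.11 ± 0.0205 (SE; limma adjusted p = 0.000249), a 1.17-fold difference that is smaller than the spread within the low class (SD 0.33).

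**Figure D3:**
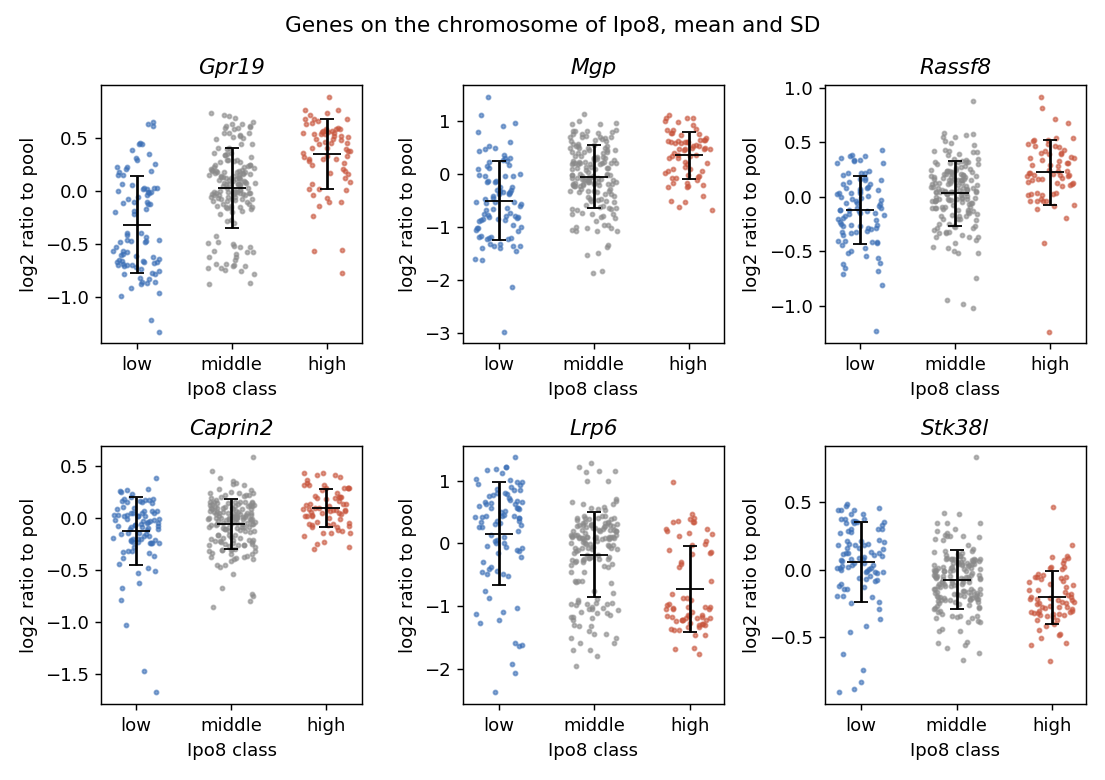
Log2 ratio to the pool (vertical axis) for Gpr19, Mgp, Rassf8, Caprin2, Lrp6 and Stk38l in each array, by Ipo8 class (horizontal axis), with the class mean and SD. Gpr19, Mgp, Rassf8 and Caprin2 rise and Lrp6 and Stk38l fall from the low to the high class, with overlap between the classes for each gene.

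Farther along chromosome 6, Pianp, a membrane protein of neurons that binds the receptor PILR-alpha, had the steepest slope of any called gene. It lay 121 places from Ipo8, and its median log2 ratio was 0.19 in the low class (-3.18 to 1.64), -0.21 in the middle class (-4.13 to 1.68) and -1.31 in the high class (-3.41 to 1.480). The slope was -0.54 ± 0.0937 (SE; limma adjusted p = 2.92e-05), and low-class animals had 2.13 times the level of high-class animals. Smyd1, a histone methyltransferase of heart and skeletal muscle, was the called gene farthest from Ipo8, at 381 places. Its median log2 ratio was 0.13 (-1.19 to 1.24), -0.03 (-1.38 to 1.30) and -0.52 (-1.42 to 0.85) from the low to the high class, with a slope of -0.24 ± 0.0496 (SE; limma adjusted p = 0.00193). In 69 of 89 low-class arrays the Smyd1 ratio was above the high-class median.

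The other called genes of the chromosome had slopes of 0.13 or less in size. Upward slopes were 0.11 for Pcyox1, which breaks down prenylcysteines (limma adjusted p = 0.00651), 0.09 for Tmcc1, a membrane protein of the endoplasmic reticulum (0.00948 on one probe, 0.535 on another), and 0.08 for Slc25a26, the mitochondrial carrier of S-adenosylmethionine (0.0113). Rerg, a Ras-related small GTPase, had a slope of 0.05 (0.0174), and Sspn, the sarcospan of the dystrophin complex in the muscle membrane, one of 0.08 (0.0315). Downward slopes were -0.07 for Hebp1, a heme-binding protein (0.00129), and -0.05 for the membrane protein gene Tm7sf3 (0.0288). The 3 called genes of largest p on this chromosome, listed after their values were seen, were Anxa4, an annexin (slope 0.13), Klra3, a receptor of natural killer cells (0.05; a second probe gave an adjusted p of 0.524), and Tulp3, a protein of cilium transport (0.06), with limma adjusted p of 0.0315, 0.0411 and 0.0411.

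Most of the genes nearest to Ipo8 did not pass the test. Of the 21 nearest, Stk38l, Tm7sf3, Sspn, Rassf8 and Caprin2 were called, and 16 were not. Those beside Ipo8 were Tmtc1 (slope 0.0047, limma adjusted p = 0.914), the mitochondrial ribosomal gene Mrps35 (-0.0015, 0.965) and Ppfibp1 (0.05, 0.412). Itpr2, a calcium release channel, had a slope of -0.00051 (0.991), and the transcription factor gene Bhlhe41 one of -0.03 (0.387). Farther out, Tuba3b, Etfrf1, Casc1, Lrmp, Bcat1, Sox5, 1700060C16Rik, St8sia1, Sult6b2, Cmas and Abcc9 had adjusted p between 0.361 and 0.943. Called genes thus alternated with uncalled ones along the same stretch, and among the called ones Stk38l and Tm7sf3 fell while Sspn, Rassf8 and Caprin2 rose.

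On other chromosomes 4 genes were called, all lower in the high class. At an unadjusted p under 0.05, 713 of the 11798 probes (6.04%) were higher there, and none of them passed limma's adjusted threshold. Podn on chromosome 4, a small leucine-rich proteoglycan of the extracellular matrix, had a median log2 ratio of 0.12 in the low class (-0.41 to 1.71), 0.03 in the middle class (-0.59 to 1.61) and -0.14 in the high class (-0.53 to 0.66). Its slope was -0.14 ± 0.0271 (SE; limma adjusted p = 0.000222), a 1.22-fold difference between low and high, and 54 of 69 high-class arrays lay below the low-class median. Tex101 on chromosome 7, a glycosylphosphatidylinositol-anchored protein of germ cells, had medians of 0.11, 0.05 and -0.05 and a slope of -0.09 ± 0.017 (SE; adjusted p = 0.000558).

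Grb2 and Brip1, both on chromosome 11, completed the set. Grb2, the adaptor between receptor kinases and Ras, had medians of 0.12 (-0.59 to 0.88), 0.05 (-1.22 to 3.67) and -0.10 (-1.40 to 1.26) and a slope of -0.12 ± 0.0294 (SE; limma adjusted p = 0.0184). Its second probe gave a slope of -0.0045 with an adjusted p of 0.881. Brip1, a DNA helicase of double-strand break repair, had medians of 0.03, 0.01 and -0.01 and a slope of -0.05 ± 0.0123 (SE; adjusted p = 0.0377), a 1.07-fold difference.

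**Figure D4:**
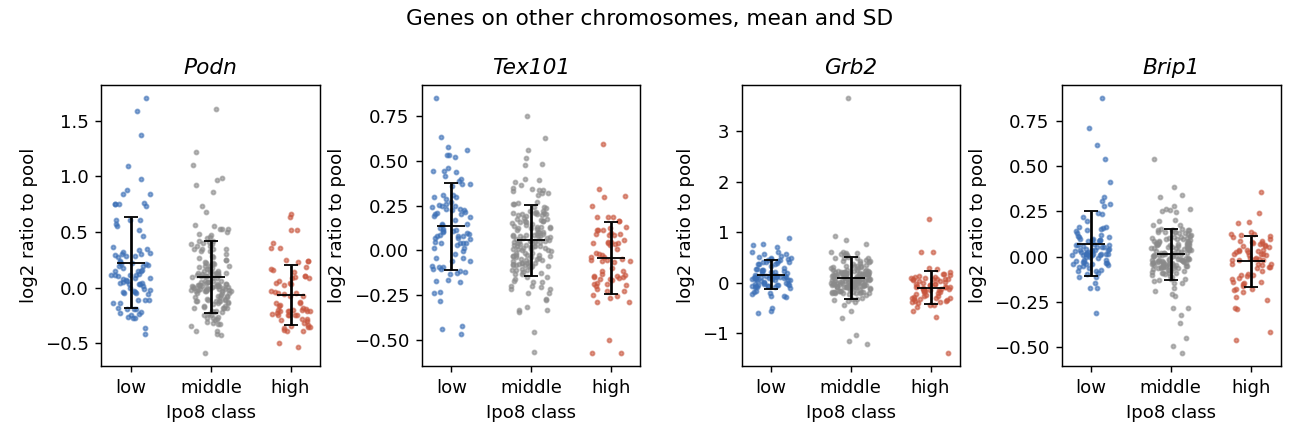
Log2 ratio to the pool (vertical axis) for Podn, Tex101, Grb2 and Brip1, the called genes on other chromosomes, in each array by Ipo8 class (horizontal axis), with the class mean and SD. Each falls from the low to the high class by less than the SD within the low class.

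The 25 called probes with no placed gene were 18 that rose (0.169% of such probes) and 7 that fell (0.0656%), and they made up 6 of the 10 probes of smallest p. Their slopes ran from 0.05 to 0.31 among the rising and from -0.42 to -0.05 among the falling ones, with limma adjusted p from 1.31e-18 to 0.0419. Of these, 23 had no gene symbol in the platform annotation. The other 2 carried the human-style symbols MARCH8 and PTCD3, which the mouse table does not list in that form. The mouse gene of the same letters as PTCD3, Ptcd3, lies on chromosome 6, but the probe was not matched to it through an identifier. The chromosomes of the other 24 are not known here, and the counts of 20 on chromosome 6 and 4 elsewhere leave them out.

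No gene of the lists tied to importin 8's function passed the test, nor did any of the lists of cell markers and interferon response genes. Over all 19 of these lists, with 214 measured genes, 0 of 302 probes were called by limma, beside 49 of all 23189 (0.211%). A count of 0 among so few probes is near that share. An unadjusted limma p under 0.05 was found for 26 list probes (8.61%), against 2994 of all 23189 probes (12.9%). The importin beta family and its Ran cycle had a median slope of 0.014, with 27 of 35 probes above 0, beside a median of -0.0013 over all probes. Its smallest p belonged to the exporter Xpo4 (slope 0.06, adjusted p = 0.217), Kpna2 (-0.03, 0.360), Kpnb1, the importin beta that most import adaptors use (0.03, 0.360), and Ipo11 (0.03, 0.378). Ipo7, the closest relative of Ipo8, had a slope of 0.01 ± 0.021 (SE; adjusted p = 0.820). Nuclear pore genes had a median slope of 0.017, with Nup133 at 0.03 (0.412) and Nup160 at 0.05 (0.446).

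Among genes for known cargo, 8 of 11 were measured and the median slope was -0.0022. Ago2, the slicing Argonaute, had a slope of -0.04 (limma adjusted p = 0.360) and Smad2 one of 0.05 (0.368). Other probes of Ago2 had slopes from -0.015 to 0.0017 (limma adjusted p from 0.679 to 0.976). The microRNA pathway list had a median of 0.00030. Of the TGF-beta ligands, receptors and regulators, Bmpr2 had the smallest p (0.09, 0.325), followed by Ltbp4 (0.07, 0.360), with a list median of 0.013, and TGF-beta and BMP target genes had a median of 0.013 with Tagln at 0.06 (0.466). Reference genes for RT-PCR, the use to which Ipo8 itself is put, had a median of 0.018, with Gapdh, also on chromosome 6, at 0.04 (0.360). Another Gapdh probe had a slope of -0.02 (limma adjusted p = 0.446). Whether messenger levels track the amounts of these proteins, or where in the cell they lie, was not measured.

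Marker lists of cells that a muscle sample can hold did not pass the test either. Slopes lay below 0 on all 12 neutrophil probes, 12 of 13 lymphocyte, 12 of 14 macrophage and 12 of 14 slow-fibre probes. Over all probes 12055 of 23189 lay below 0. Among other lists, 10 of 13 keratinocyte, 9 of 13 interferon response, 7 of 11 fibroblast and matrix and 5 of 7 liver probes did. The counts were 6 of 12 for adipocyte, 4 of 10 for endothelial, 2 of 6 for erythroid and 1 of 5 for skeletal muscle probes. The neutrophil list had a median slope of -0.04 (smallest limma adjusted p 0.353, for Cebpe). Its mean log2 ratio had class medians of -0.83, -0.86 and -0.88 from low to high. Lymphocyte markers had class medians of -1.15, -1.19 and -1.20, and macrophage markers -0.41, -0.49 and -0.52. The endothelial list held the lowest adjusted p of any list, 0.124 for Vwf on chromosome 6, with a slope of 0.08. Slow-fibre genes had a median slope of -0.02 and class medians of -0.28, -0.25 and -0.39 from low to high. Of 17 skeletal muscle genes 3 were measured, with slopes of 0.06 for Casq1, 0.04 for Ryr1 and 0.02 for Ttn. Other probes of Ryr1 and Ttn had slopes of 0.0083 and -0.010. The part of these cell types in the called genes was not tested.

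Whether the middle class lay off the midpoint of the other classes was tested in the same limma model. Of the 23189 probes 0 were called (lowest adjusted p 0.832), and 767 (3.31%) had an unadjusted p under 0.05. For Gpr19 the middle class lay 0.01 ± 0.044 (SE) from the midpoint, and for the first Stk38l probe -0.00096 ± 0.027.

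Other genes taken for comparison did not pass the test on Ipo8 class. Skap2, an adaptor of immune cells on chromosome 6 but 438 places from Ipo8, had a slope of -0.24 ± 0.179 (SE; limma adjusted p = 0.517). Wtap, Nprl2, Rps3, Pttg1, Paip1, Ccl27a and Ifi202b, all on other chromosomes, had adjusted p between 0.502 and 0.991. For Eif2s3y, which separates the arrays by Y chromosome, the slope was 0.01 ± 0.26 (SE; adjusted p = 0.992).

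The Ipo8 ratio still varied inside each class, and many transcripts varied with it there. With class as a factor and the Ipo8 log2 ratio beside it, 13576 of 23189 probes (58.5%) were called for the ratio inside a class, 6081 with a positive and 7495 with a negative coefficient, in log2 units per log2 unit of Ipo8. Adding the first 5 principal components of all probes, of which the first held 18.3% of the variance, left 304. Among genes of smallest p were Tmem59 (0.88 ± 0.088, SE; limma adjusted p = 2.45e-16), Lypla1 (1.93 ± 0.205; 8.47e-15) and Kdelr1, which returns proteins to the endoplasmic reticulum (-1.76 ± 0.19; 1.11e-14). These values describe arrays on which Ipo8 and the other probe were read together, and the part of shared array error in them was not tested.

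For the genes of chromosome 6 the relation inside a class did not always run as it did between classes. Of the 20 called probes, 11 were also called inside a class, a share near the 58.5% of all probes. Of these 11, 8 had the sign of the class slope. The other 3 were the probes of Stk38l, which fell from class to class but rose with Ipo8 inside a class, by 0.52 ± 0.112 (SE; limma adjusted p = 2.3e-05) on the first probe. Rassf8 rose in both readings, by 0.75 ± 0.14 inside a class (adjusted p = 1.03e-06), and so did Caprin2, by 0.87 ± 0.115 (1.45e-11), and Gpr19, by 0.67 ± 0.186 (0.00101). Mgp (0.11, adjusted p = 0.768) and Lrp6 (0.38, 0.355) were not called inside a class. With the 5 components in the fit, Stk38l had a coefficient of -0.09 (adjusted p = 0.723), Rassf8 0.13 (0.686), Caprin2 0.20 (0.255) and Gpr19 0.70 (0.051) inside a class.

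**Figure D5:**
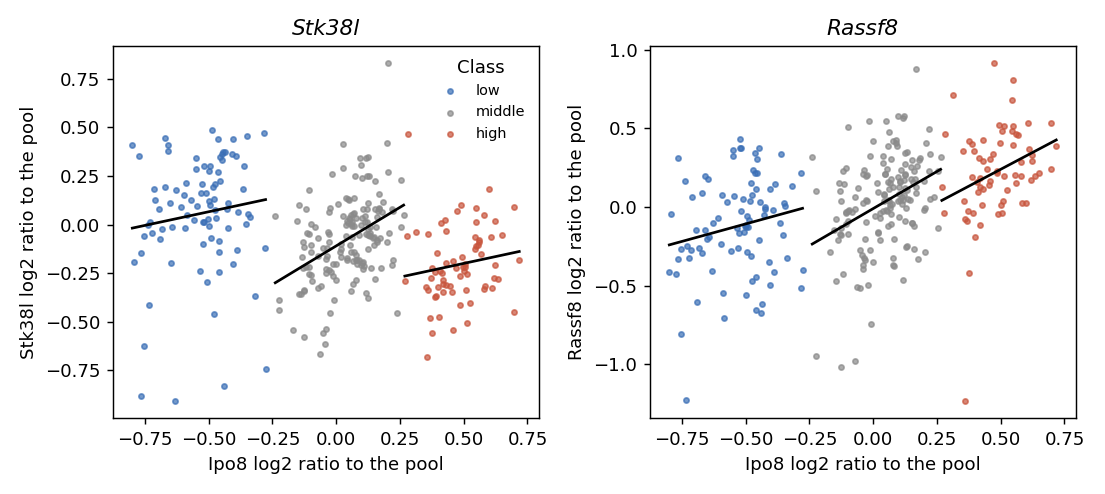
Log2 ratio of Stk38l and of Rassf8 (vertical axes) against the Ipo8 log2 ratio (horizontal axis), 1 point per array, coloured by class, with a line fitted in each class. Stk38l steps down from class to class while its points rise with Ipo8 inside the classes (0.52 per log2 unit), and Rassf8 rises both ways (0.75 inside a class).

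The arrays were also split at the median animal number in the labels, which do not say what the numbers follow. The lower-numbered arrays held 47 low, 82 middle and 31 high arrays and the higher-numbered arrays 42, 79 and 38. Among the lower numbers 29 probes (0.125%) were called, each with the same sign among the higher numbers, and among the higher numbers 13 (0.0561%), each with the same sign among the lower. In both sets 10 probes were called, 5 of them on chromosome 6, 0 on another chromosome and 5 with no placed gene. All 49 probes called over all arrays had the same sign in both sets. They were called on these same arrays, which favours a shared sign, so this count is no separate test.

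Gpr19 had slopes of 0.38 (limma adjusted p = 4.55e-13) and 0.28 (6.82e-05) in the lower-numbered and the higher-numbered arrays, Mgp 0.41 (6.68e-05) and 0.44 (3.95e-06), Lrp6 -0.43 (0.00471) and -0.44 (0.000137), and Stk38l -0.13 (0.00595) and -0.13 (0.0051). The third Stk38l probe had slopes of -0.11 (0.0996) and -0.11 (0.0405). Read on their probes of smallest p, Gpr19, Mgp, Lrp6 and Stk38l passed the test in each set. Rassf8 passed it in the lower-numbered arrays alone, with slopes of 0.20 (2.27e-05) and 0.14 (0.0808), as did Caprin2, with 0.15 (0.00402) and 0.07 (0.625), and Podn, with -0.17 (0.00402) and -0.11 (0.573). These genes and their probes were chosen by p over all arrays, which favours a pass in each set. The passes are therefore no separate test. The difference between the sets was not tested.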

How the data were processed

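Two-colour oligonucleotide arrays were run on F2 mouse muscle RNA against a common pool (319 arrays, 318 animal numbers), and per the labels Cy3 marked the animal and Cy5 the pool. The deposited values were log10 ratios limited to -2 and 2, with 0.654% missing. Background correction, normalization, scale and direction are not given in the sources used here. Values were multiplied to log2 and otherwise kept. Of 23382 probes, 192 with values on fewer than 80% of arrays and the Ipo8 probe itself were left out. Of all probes 13639 had 1 symbol, 48 several and 9695 none, and 12647 were placed through RefSeq (GRCm38.p6), with 992 symbols not found. Class was fitted with lmFit and eBayes of limma 3.58.1 in R 4.3.3, with Benjamini-Hochberg adjustment over 23189 probes and no covariate. The code was tested on simulated data. Each array was treated as 1 animal, and no batch is labelled. Genes were named as all 20 neighbours to either side, the 15 called genes of smallest p on chromosome 6, up to 10 called genes per direction elsewhere, up to 4 genes of each list, and further genes for comparison. A gene was given by its probe of smallest p. The classes and lists were chosen with earlier results of these data known. Alternatives covered scaling, components, filters, thresholds and subsets of arrays. The number of arrays limits the precision.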

Additional observations from a re-analysis of the deposited data

How the results depend on the processing

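The fit of 49 called probes was repeated under 17 alternatives. With 5 principal components as covariates 75 probes were called, 33 on chromosome 6 and 8 on other chromosomes, and 304 inside a class instead of 13576. In the lower-numbered arrays the counts were 29, 11 and 2, with 7624 inside a class, and in the higher-numbered arrays 13, 7 and 0, with 12670 inside a class. Leaving out 1 of the arrays that share a number, an alternative chosen after seeing the data, called the same 49 probes. Of the 19 called genes named by rule, 10 were called in the lower-numbered and 5 in the higher-numbered arrays, sets that hold fewer arrays. With the Ipo8 ratio in place of class, 7495 probes were called, 254 on chromosome 6 and 3768 elsewhere, with 61 named genes and 78 list probes in place of 0; the cause was not tested. On other chromosomes 2 probes in place of 4 were called without arrays near a class limit, and 2 without the arrays with a high lymphocyte signal. Of the 22 called genes, each read on its probe of smallest p, Gpr19, Mgp, Lrp6 and Stk38l kept their call in all 17 settings. Another 5 lost it in 1 and 13 in at least 2, and 0 reversed. Of the called genes on other chromosomes, Podn lost its call in 1 setting, Tex101 in 2, Grb2 in 5 and Brip1 in 7. No paired analysis was possible because the arrays form 1 group. The array number limits what small slopes can show.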

Other observations

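Inside a class, with class held in the fit, 26.2% of all probes were called with a positive and 32.3% with a negative coefficient on Ipo8, 58.5% in all. All 12 neutrophil probes were called, with negative coefficients. Nuclear pore genes were called upward on 9 (60.0%) and downward on 5 (33.3%) of 15 probes, with Nup160 at 1.47 log2 units per log2 unit of Ipo8 (limma adjusted p = 1.39e-13). Of 22 probes of TGF-beta ligands, receptors and regulators 12 were called upward (54.5%) and 3 downward (13.6%), and of 64 probes of reference genes for RT-PCR 37 upward (57.8%) and 7 downward (10.9%). The shares of some other lists lay below the 58.5% of all probes. Importin and Ran cycle genes were called on 45.7% of 35 probes, 14 upward (40.0%) and 2 downward (5.71%), among them the exporter of importin alpha, Cse1l (0.84; limma adjusted p = 2.68e-08). Cargo genes were called on 50.0% of 14 probes, 5 upward and 2 downward, among them Smad2 (0.88, limma adjusted p = 3.62e-11) and the cap-binding factor Eif4e (1.05, 2.65e-09). Lymphocyte markers were called on 23.1% of 13 probes, all 3 downward, and macrophage markers on 14.3% of 14. These counts were not tested against the share of all probes, and the part of array-wide variation in them was not tested.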
